A study of Mus musculus with 32 samples.

Results

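Cytosolic ribosomal protein genes were followed in RNA from whole femoral marrow of mice in which adiponectin-expressing cells carry the receptor for diphtheria toxin (DT). The genes were taken by symbol: Rpl or Rps followed by a digit, Rplp0 to Rplp2, and Rpsa, without pseudogene symbols and the S6 kinases. The rule gave 92 features of 41388 in the deposited tables. Of these, 77 are core ribosomal proteins, 46 of the large and 31 of the small subunit. Another 14 are related copies such as Rpl22l1 and Rpl39l. The last, Rps19bp1, encodes a protein that binds Rps19 and is not itself part of the ribosome. Fau and Rack1 encode ribosome components with other names and are given separately.

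Each of the 32 libraries came from 1 mouse, in 8 groups of 4. DTRADQ mice carry the Cre-dependent DT receptor (iDTR) and Cre driven by the adiponectin promoter, and the controls are their Cre-negative littermates. All mice were C57BL/6 and 2 months old. Each genotype was sampled with no DT and after daily intraperitoneal injections of 100 ng DT per mouse for 1, 2 or 3 days, so that the controls of days 1 to 3 received the toxin too. Adipoq, which marks the targeted cells, was at 0.22 to 1.07 CPM in DTRADQ marrow after DT, against 32.2 to 66.3 CPM in control marrow.

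Ribosomal proteins assemble with ribosomal RNA in the nucleolus into the small subunit, which reads the messenger RNA, and the large subunit, which forms the peptide bond. Their messenger RNAs are among the most abundant of a growing cell. Most begin with a run of pyrimidines at the cap, through which the kinase mTOR controls their translation as a set. DT inactivates the elongation factor eEF2 by modifying its diphthamide residue, which stops translation in cells that take the toxin up. Mouse cells without the transgene bind DT poorly. In bulk RNA of this kind, fewer cells of a type and less RNA per cell cannot be told apart.

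Pyrimidine runs were looked for around the annotated starts. RefSeq start regions (build GRCm38.p6) were matched to 67 of the 92 members. A run of 8 or more C or T bases touching the window from 10 bases before to 20 bases after the start was present in 31 of the 67 members (46.3%), against 19.2% of 27025 genes. With 31 of 67, most matched members did not hold the longer run there. A start at C followed by 4 pyrimidines was present in 14 members (20.9%), against 3.01% of all genes. The sequences below are from members named in the text, and each shows 20 bases before and 20 after the annotated start, 5′ to 3′ on the strand of the gene. Capitals mark the longest run of C and T that touches the window. The run of Rps27rt has 7 bases and begins at base 18 counted from the start, so its end lies past the printed stretch.
Rps10 (chr17:27635225-27635264, minus strand): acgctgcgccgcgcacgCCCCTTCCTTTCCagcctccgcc
Rpl27a (chr7:109519175-109519214, plus strand): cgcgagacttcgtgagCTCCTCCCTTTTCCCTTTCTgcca
Rpl35 (chr2:39005112-39005151, minus strand): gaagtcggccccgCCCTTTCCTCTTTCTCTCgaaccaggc
Rpl31 (chr1:39367831-39367870, plus strand): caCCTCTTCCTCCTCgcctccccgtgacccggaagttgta
Rps27 (chr3:90213629-90213668, minus strand): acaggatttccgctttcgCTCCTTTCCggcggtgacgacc
Rps27rt (chr9:114982720-114982759, minus strand): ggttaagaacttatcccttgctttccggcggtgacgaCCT
Rpl39 (chrX:37085203-37085242, minus strand): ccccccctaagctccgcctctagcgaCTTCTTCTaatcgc
Rpl39l (chr16:10170208-10170247, plus strand): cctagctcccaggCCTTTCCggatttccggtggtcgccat
Rps27rt is the copy of Rps27. Over 300 bases (250 before the start and 50 after it) on both strands and allowing overlaps between motifs, CCGGAA was found in 53.7% of the members and 16.7% of all genes, GGGCGG in 61.2% and 38.2%, ATGGCG in 31.3% and 10.2%, and CTTTC in 82.1% and 60.6%. These matches are a description of the letters only, and annotated starts may lie some bases from the starts used in marrow.

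The library totals ran from 8966165 to 22929352 counts. Of the control libraries with no DT, libraries 3 and 4 stood apart. Their 10 highest genes took 37.4% and 50.7% of the counts, while library 2, at 28.6%, lay within the 19.4% to 30.9% of the other 29 libraries. The summed level of 20 erythroid markers, globins included, was 74610 to 103300 CPM in DTRADQ marrow with no DT and 93530, 137500, 294700 and 482000 CPM in control libraries 1 to 4 with no DT. Libraries 3 and 4 were also the shallowest, at 9490569 and 8966165 counts. The counts of members called in each comparison are therefore given with all libraries and without control no-DT libraries 3 and 4, called the reduced set. Many single genes, classes and gene lists are given with all libraries only. Levels across libraries are CPM after TMM scaling, and changes are log2 values, DTRADQ over controls, with the standard error (SE) of edgeR's quasi-likelihood test. A gene is called at a Benjamini-Hochberg adjusted p under 0.05 over all 14527 genes tested. Counts at an unadjusted p under 0.05 are given without a share of all genes, so they cannot be read against one.

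The level of the members differed widely, although the ribosome holds its proteins in near equal number. On the deposited RPKM scale, which is per length, Rpl32 had the highest median over the 32 libraries at 1542 RPKM, followed by Rpl4 at 1113, Rpl8 at 997 and Rps14 at 841. Among the lowest core members were Rpl24 at 0.68 RPKM, Rpl23a at 0.76, Rps6 at 0.95 and Rpl11 at 1.5. The core median was 27.2 RPKM and the median of the related copies 5.69. Rps27l, at 200 RPKM, was the highest of those copies, followed by Rpl22l1 at 108 and Rpl7l1 at 52.8.

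These levels moved with sequence shared between genes. The share of a gene's 50-base stretches that also occur in another annotated gene was 0% to nearly all of the transcript. Across the 77 core members, log2 median RPKM and that share had a Pearson r of -0.54 and a Spearman rho of -0.54. This is a description across genes, which are not independent replicates. The 46 members with 50% or more shared had a median of 8.97 RPKM, and the 46 under 50% had 56.2. The files held 250 named ribosomal protein pseudogenes, and 57 members had at least 1 of them. Features under pseudogene names took 0.0067% to 0.019% of counts. How the authors counted reads that match several places is not given in the sources used here, so a low level of a member with much shared sequence, such as Rpl24 or Rps27, is uncertain as a level. Rps27 was at 0.29 to 2.37 CPM in the 32 libraries, while its copy Rps27rt, 91.1% of whose stretches are shared, was at 1.77 to 12.5 CPM.

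**Figure D1:**
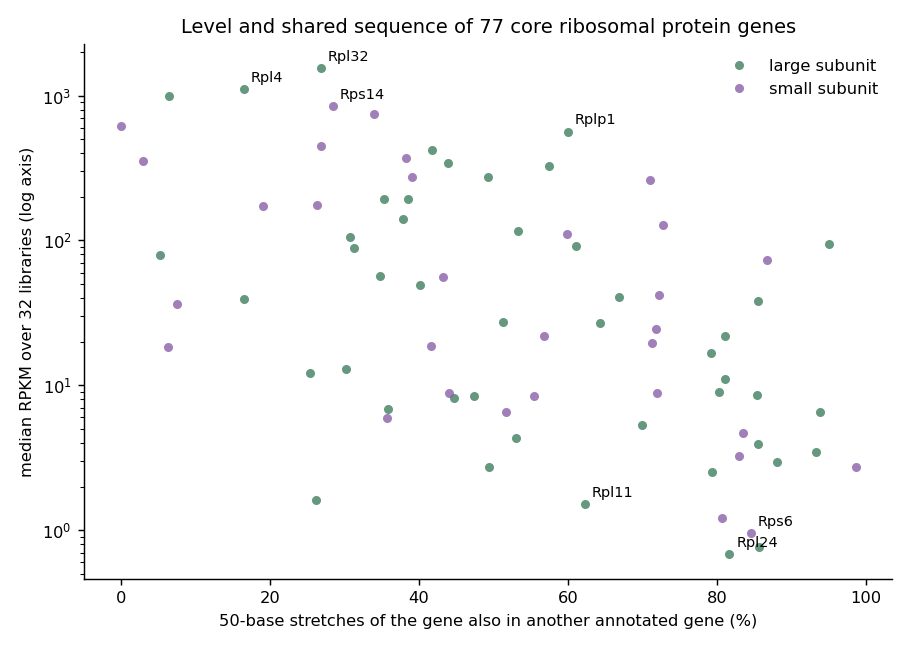
Each point is 1 of the 77 core ribosomal protein genes; the x axis gives the percent of its 50-base stretches found in another annotated gene, and the y axis its median RPKM over 32 libraries on a log axis. Rpl32 (1542 RPKM) and Rpl4 (1113) lie at low shared percentages, and Rpl24 (0.68) and Rps6 (0.95) at high ones.

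Taken as a set, the 92 features took a smaller share of the counts in DTRADQ marrow than in control marrow after each number of DT injections. With no DT the share was 1.67, 1.66, 1.90 and 1.90% in DTRADQ marrow, against 1.86, 2.48, 3.45 and 3.36% in control marrow. After 1 day of DT it was 1.37, 1.24, 1.25 and 1.25% in DTRADQ marrow, against 1.51, 1.85, 1.93 and 1.78% in control marrow. After 2 days it was 1.25, 0.989, 1.10 and 1.09% in DTRADQ marrow, against 1.61, 1.73, 1.77 and 1.97% in control marrow. After 3 days it was 1.14, 1.13, 1.08 and 1.11% in DTRADQ marrow, against 1.63, 1.55, 1.73 and 1.92% in control marrow. On each DT day the share of all DTRADQ libraries lay below that of all controls, and with no DT control library 1 lay within the DTRADQ range. The share carries no TMM scaling. As a summed TMM-scaled level the groups overlapped on day 1, at 13160 to 14220 CPM in DTRADQ and 13970 to 16960 CPM in control marrow. They did not overlap on day 2 (10880 to 12680 against 13500 to 16540 CPM) or day 3 (10790 to 12260 against 14180 to 16510 CPM). The mean shares were 1.78 ± 0.138, 1.28 ± 0.0631, 1.11 ± 0.109 and 1.12 ± 0.0251% in DTRADQ marrow with no DT and after 1, 2 and 3 days, and 2.79 ± 0.757, 1.77 ± 0.179, 1.77 ± 0.149 and 1.71 ± 0.160% in control marrow (SD, n = 4 each). The differences were -1.01 points with no DT, -0.489 on day 1, -0.665 on day 2 and -0.589 on day 3. The no-DT difference was -0.388 without control libraries 3 and 4 and -0.0795 without libraries 2, 3 and 4. No test was run on the share, since the members were chosen with earlier results known.

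**Figure D2:**
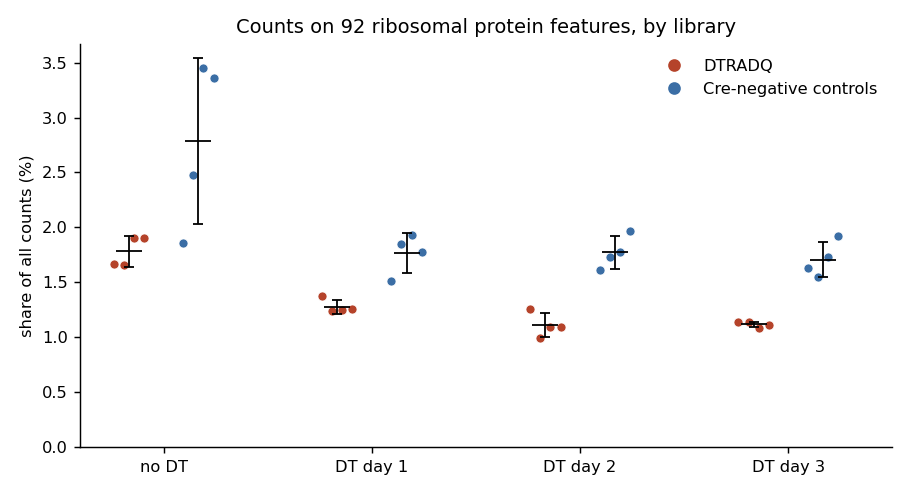
Share of all counts on the 92 ribosomal protein features (y axis, percent) in each library, by DT day (x axis), with DTRADQ left of the Cre-negative controls; points are libraries and lines mark each group's mean ± SD. After DT the DTRADQ libraries sit between 0.989 and 1.37% and the controls between 1.51 and 1.97%, while the controls with no DT spread from 1.86 to 3.45%.

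Both subunits had a lower share. After 3 days large-subunit members held 0.576 ± 0.0108% of the counts in DTRADQ marrow and 0.865 ± 0.0839% in control marrow, and small-subunit members 0.506 ± 0.0137% and 0.795 ± 0.0759% (SD, n = 4 each). The ratio of large-subunit to small-subunit counts was 1.19 ± 0.0128 in DTRADQ and 1.17 ± 0.0142 in control marrow on day 1, 1.16 ± 0.0250 and 1.18 ± 0.0342 on day 2, and 1.14 ± 0.0146 and 1.09 ± 0.0294 on day 3 (mean of 4 libraries ± SD). On day 3 the groups did not overlap, with 1.121 to 1.155 in DTRADQ and 1.053 to 1.116 in control marrow. With no DT the ratio was 1.12 ± 0.0300 in DTRADQ marrow and 1.01 ± 0.161 in control marrow.

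By gene, 88 of the 92 members were tested. Rpl10l, Rpl6l, Rps12l1 and Rps3a2 had at most 11 counts in any library and were not. On day 3, 17 of the 88 members fell and 1 rose in DTRADQ marrow, with 14.1% of all genes called lower and 8.8% called higher. The median change of the 88 was -0.35, against -0.02 over all genes, and 78 of the 88 had a change below 0. Leaving out 1 library brought the 17 falls down to 5 without DTRADQ library 2, 9 without DTRADQ library 3, 8 without DTRADQ library 4 and 6 without control library 4. In the reduced set, from which this comparison loses no library of its own but takes another estimate of spread, 42 fell and 3 rose, with 18.1% of all genes called lower and 15.2% higher. Fitted on the day 3 libraries alone, 49 fell and 3 rose, with 20.3% and 15.9% of all genes. In 52 of the 88 members, every DTRADQ library lay below every control library on day 3, as in 20.4% of all genes. In 3 members, Rpl39l, Rpl28 and Rpl7l1, every DTRADQ library lay above, as in 14.9% of all genes.

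On day 2, 2 members fell and none rose, Rpl27a and Rpl11, with 4.12% of all genes called lower and 4.4% higher. The median of the 88 members was -0.34, against -0.04 over all genes, and 83 had a change below 0. With the reduced set 31 fell (35.2% of the 88) and none rose, with 9.35% of all genes called lower and 9.9% higher. Leaving out 1 day 2 library gave 0 to 3 calls. Fitted on the day 2 libraries alone, 35 of 84 tested members fell, with 9.09% of all genes called lower. In 36 members every DTRADQ library lay below every control, as in 10.7% of all genes.

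On day 1 Rpl31 alone was called, lower, with 3.02% of all genes called lower and 0.888% higher. At an unadjusted p under 0.05, 10 members were lower and none higher. The median of the 88 members was -0.23, and 82 had a change below 0. The reduced set gave 10 falls (11.4% of the 88), with 5.86% of all genes called lower and 3.03% higher. Fitted on the day 1 libraries alone, 7 of 85 tested members fell, with 4.19% of all genes called lower. In 15 members every DTRADQ library lay below every control, as in 8.87% of all genes. When counts were scaled by library total alone, the median of all genes itself moved to -0.25, -0.36 and -0.18 on days 1 to 3, and that of the members to -0.47, -0.66 and -0.52.

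**Figure D3:**
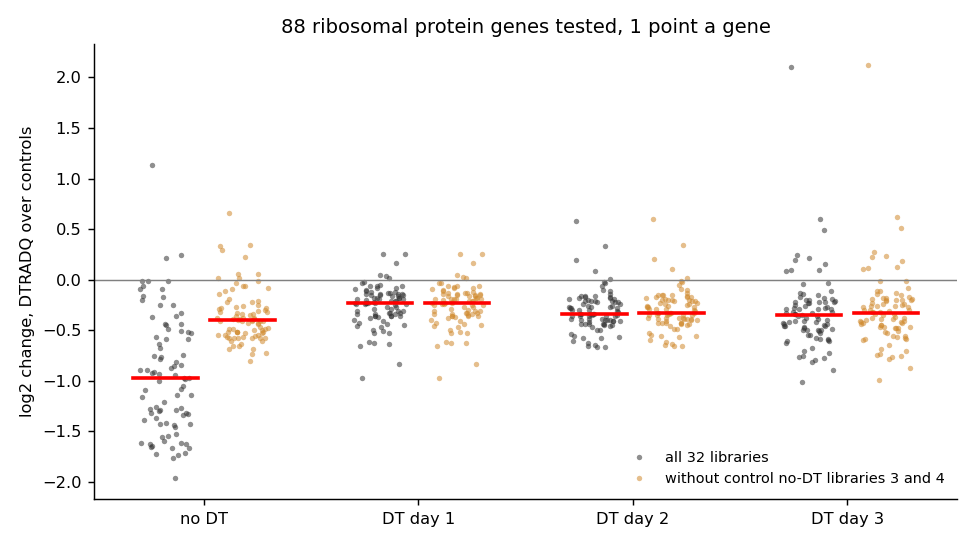
Log2 change, DTRADQ over controls (y axis), of each of the 88 tested members by DT day (x axis), from all 32 libraries (grey) and without control no-DT libraries 3 and 4 (orange); red bars mark medians. The medians after DT lie between -0.23 and -0.35 in both, the no-DT median is -0.97 and -0.40, and the point at 2.10 on day 3 is Rpl39l.

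Other cell markers moved in the same comparisons. Of all genes, 0.888%, 4.4% and 8.8% were called higher on days 1, 2 and 3, and 3.02%, 4.12% and 14.1% lower. The counts of markers that rose or fell are to be read against these shares. On days 1, 2 and 3, the summed level of 18 mature neutrophil markers was 110000 to 148900, 123700 to 165200 and 114500 to 147900 CPM in DTRADQ marrow, against 62500 to 111600, 72820 to 91830 and 78390 to 132300 CPM in control marrow, and 1, 7 and 9 of the 18 rose. The 20 erythroid markers, whose sum is set by the globins, summed to 112400 to 168500, 121800 to 210700 and 114400 to 167500 CPM in DTRADQ marrow on days 1, 2 and 3, against 71140 to 116900, 66480 to 110700 and 74200 to 99580 CPM in control marrow. On day 3, 15 of the 20 fell and 3 rose. Megakaryocyte markers summed to 3740 to 5057, 3558 to 5925 and 3831 to 4632 CPM in DTRADQ marrow, against 2722 to 3376, 2809 to 4019 and 2567 to 3335 CPM in control marrow, and 3, 5 and 8 of 14 rose. Endothelial markers on day 3 summed to 220 to 286 CPM in DTRADQ marrow, against 124 to 164 CPM in control marrow, with 9 of 15 tested higher. Cell division genes summed to 2247 to 2902 CPM in DTRADQ marrow on day 3, against 4360 to 5270 CPM in control marrow, and 18 of 20 fell. On day 2 none of these 20 was called by edgeR or DESeq2, and 4 were lower at an unadjusted p under 0.05. Fibroblast and matrix genes summed to 834 to 1263 CPM in DTRADQ marrow on day 3, against 361 to 415 CPM in control marrow, with 16 of 18 higher and 1 lower. Skeletal muscle genes summed to 142 to 785 CPM in DTRADQ marrow on day 3, against 50.8 to 79.9 CPM in control marrow, with 11 of 14 tested higher. The sums also did not overlap for fibroblast and matrix genes on day 1, at 271 to 310 CPM in DTRADQ marrow and 336 to 479 CPM in control marrow. On day 2 they did not overlap for promyelocyte markers, at 4737 to 6374 CPM in DTRADQ and 3149 to 4636 CPM in control marrow, or for monocyte and macrophage markers, at 2998 to 3373 CPM in DTRADQ and 2645 to 2930 CPM in control marrow. None of the genes of these lists was at 0 in all libraries of a group on day 3. Their part in the ribosomal protein changes was not tested.

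Rps10, a small-subunit protein at the head of the subunit that is ubiquitinated when ribosomes collide, had the largest fall on day 3 among members called. After 3 days it was at 23.0, 23.4, 24.8 and 20.7 CPM in DTRADQ marrow, against 44.6, 40.2, 47.6 and 53.1 CPM in control marrow. It lay lower in all DTRADQ libraries, with a log2 change of -1.01 (SE 0.22, adjusted p = 0.00095). After 2 days it was at 26.1, 22.2, 26.0 and 25.5 CPM in DTRADQ marrow, against 34.3, 42.2, 44.0 and 36.6 CPM in control marrow. After 1 day it was at 26.8, 26.2, 26.3 and 24.1 CPM in DTRADQ marrow, against 29.1, 39.5, 39.5 and 38.0 CPM in control marrow. On both days the groups did not overlap, but the changes of -0.66 (adjusted p = 0.059) and -0.50 (adjusted p = 0.24) were not called with all libraries. They were -0.64 (adjusted p = 0.00035) and -0.50 (adjusted p = 0.0055) in the reduced set, since the SE was 0.12 instead of 0.22. With no DT, Rps10 was at 41.4, 39.4, 42.5 and 44.8 CPM in DTRADQ marrow, against 34.8, 51.5, 120.5 and 117.2 CPM in control marrow, and its change was -0.03 without libraries 3 and 4. The gene lies on chromosome 17, and 56.8% of its 50-base stretches are shared with other annotated genes.

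Rpl22, a large-subunit protein needed for alpha-beta T cell development in mice, fell on day 3 with little shared sequence. It was at 145.6, 123.1, 122.0 and 113.7 CPM in DTRADQ marrow, against 236.2, 190.9, 239.0 and 271.3 CPM in control marrow. The groups did not overlap, and the log2 change was -0.89 (SE 0.27, adjusted p = 0.016), or -0.82 (adjusted p = 0.054) without control library 4. Few of its 50-base stretches are shared (5.2%), and no other feature overlaps it. Its copy Rpl22l1, which can take its place in the ribosome, was at 43.4, 32.4, 30.1 and 30.2 CPM in DTRADQ marrow, against 58.6, 52.7, 53.3 and 60.6 CPM in control marrow. It fell as well, with a log2 change of -0.73 (adjusted p = 0.046).

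Rps14, whose loss of 1 copy underlies the anaemia of the human 5q deletion syndrome, was among the most abundant members. On day 3 it was at 755, 693, 678 and 633 CPM in DTRADQ marrow, against 1234, 999, 1331 and 1271 CPM in control marrow. Its log2 change was -0.81 (SE 0.26, adjusted p = 0.02), and leaving out DTRADQ library 2, 3 or 4 or control library 4 put the adjusted p at 0.050 to 0.058. Rps27rt fell by 0.79 on the log2 scale (adjusted p = 0.0084), at 2.56, 1.77, 3.17 and 2.25 CPM in DTRADQ marrow and 4.01, 4.04, 3.84 and 4.91 CPM in control marrow, but by 0.62 (adjusted p = 0.056) without DTRADQ library 2. Because nearly all of its sequence is shared, its reads cannot be assigned to it with certainty. The other members called lower on day 3 were Rps24, Rpl39, Rpl13a, Rpsa, Rpl27a, Rpl13, Rpl31, Rpl11, Rpl14, Rpl9, Rpl15 and Rps3a1, which with those above make the 17. Of other abundant members not called, Rpl32 had a change of -0.41 (adjusted p = 0.25), Rpl4 of -0.37 (adjusted p = 0.15) and Rpl8 of -0.25 (adjusted p = 0.31).

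Rpl27a, a large-subunit protein near the tunnel through which the new chain leaves, was called on days 2 and 3. After 2 days it was at 13.9, 11.1, 10.7 and 16.0 CPM in DTRADQ marrow, against 18.1, 19.2, 22.3 and 22.3 CPM in control marrow. The log2 change was -0.67 (SE 0.17, adjusted p = 0.015) on day 2 and -0.67 (SE 0.17, adjusted p = 0.0042) on day 3. The day 2 adjusted p was 0.054 to 0.071 without DTRADQ library 2 or 3 or control library 3 or 4. Rpl11, which with Rpl5 and 5S ribosomal RNA binds Mdm2 when ribosome assembly is disturbed, had a change of -0.64 (adjusted p = 0.036) on day 2 and -0.55 (adjusted p = 0.034) on day 3. Its day 2 call was lost without any 1 library other than DTRADQ library 1, at adjusted p = 0.052 to 0.12. Rpl31 was at 3.82, 3.79, 3.58 and 3.49 CPM in DTRADQ marrow on day 1, against 5.09, 6.13, 7.37 and 7.59 CPM in control marrow. Its change was -0.83 (SE 0.20, adjusted p = 0.014) on day 1, -0.40 (adjusted p = 0.21) on day 2 and -0.59 (adjusted p = 0.027) on day 3. The day 1 adjusted p was 0.062 without control library 3 and 0.059 without control library 4. Rpl31 has 21 named pseudogenes, so its level is uncertain.

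Rpl39l was the member that rose. It is a copy of Rpl39, a short protein of the exit tunnel, and in mice is known from male germ cells. After 3 days it was at 5.01, 6.20, 4.30 and 6.50 CPM in DTRADQ marrow, against 1.11, 1.28, 1.67 and 1.06 CPM in control marrow. These levels rest on 92, 112, 65 and 133 counts in DTRADQ libraries and 26, 32, 37 and 26 in control libraries. The groups were far apart, with a log2 change of 2.10 (SE 0.32, adjusted p = 1e-05), and of 2.13 (adjusted p = 3.8e-06) in the reduced set. After 2 days it was at 0.47, 1.22, 2.28 and 2.45 CPM in DTRADQ marrow, against 0.75, 1.29, 1.29 and 0.92 CPM in control marrow, and the groups overlapped. After 1 day it was at 0.74, 0.36, 0.69 and 0.39 CPM in DTRADQ marrow, against 0.55, 0.83, 1.67 and 1.33 CPM in control marrow. The changes of 0.58 on day 2 (adjusted p = 0.33) and -0.97 on day 1 (adjusted p = 0.22) were not called. None of its 50-base stretches is shared, it has no named pseudogene, and no other feature overlaps it. Rpl39 itself went the other way on day 3, at 38.6, 31.6, 30.5 and 27.8 CPM in DTRADQ marrow, against 55.2, 48.9, 52.9 and 62.0 CPM in control marrow. Its log2 change was -0.77 (SE 0.26, adjusted p = 0.029). On the per-length scale Rpl39l averaged 6.49 ± 1.44 RPKM in DTRADQ and 1.67 ± 0.312 RPKM in control marrow on day 3 (SD, n = 4 each), and Rpl39 had a median of 39.1 RPKM over all libraries.

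**Figure D4:**
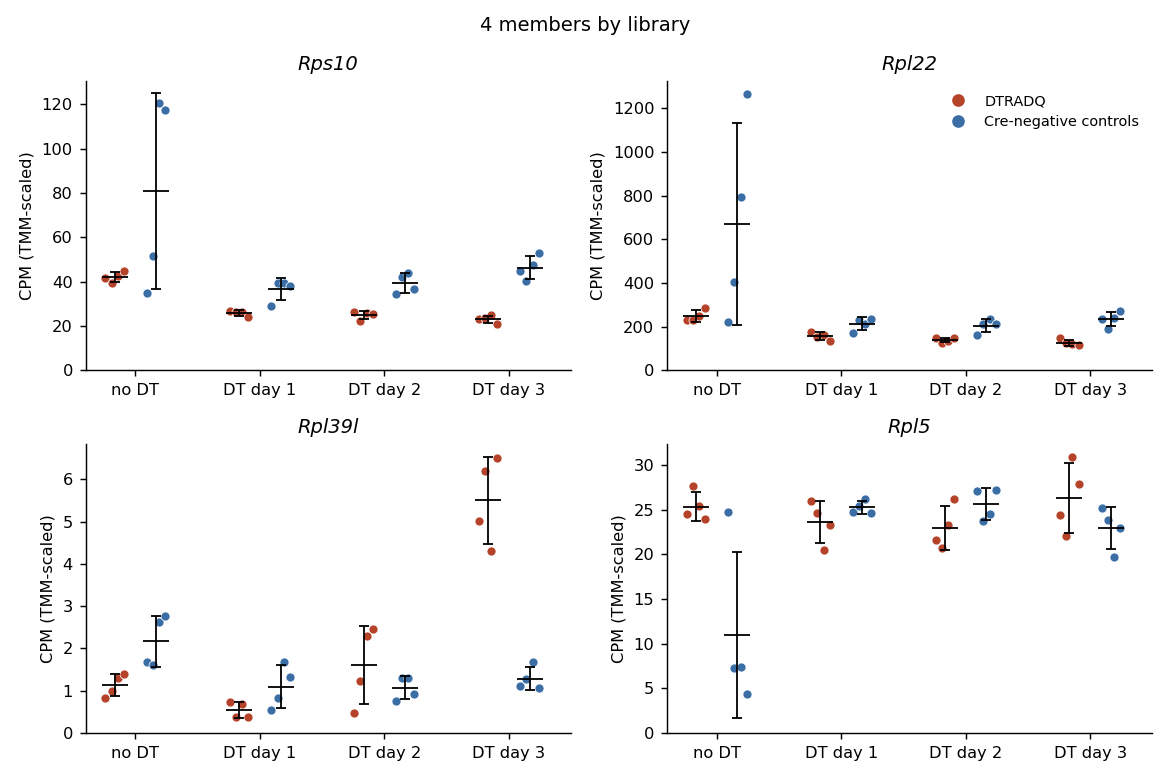
TMM-scaled CPM (y axes) of Rps10, Rpl22, Rpl39l and Rpl5 in each library by DT day (x axes), with DTRADQ left of the Cre-negative controls; points are libraries and lines mark each group's mean ± SD. On day 3 Rps10 and Rpl22 lie lower and Rpl39l higher in all DTRADQ libraries, and with no DT Rpl5 lies at 4.35 to 7.40 CPM in control libraries 2 to 4 alone.

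The stalk proteins, which bring eEF2 and the other translation factors to the large subunit, were not called after DT with all libraries. Rplp1 had a change of -0.43 on day 1, -0.61 on day 2 and -0.61 on day 3, with adjusted p = 0.44, 0.14 and 0.094. Rplp2 had -0.30, -0.45 and -0.40, and Rplp0 had -0.06, -0.28 and -0.29. Rplp1 and Rplp2 were called on days 2 and 3 in the reduced set, with Rplp1 at adjusted p = 0.0041 and 0.002 and Rplp2 at 0.019 and 0.026. Rplp0 was not called (adjusted p = 0.095 and 0.068).

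The day 3 falls are given by class of member, to be read against the 14.1% of all genes called lower and 18.1% in the reduced set. On day 3, 11 of 49 large-subunit members other than the stalk fell and 1 rose, with a median of -0.29, and 6 of 35 small-subunit members fell, with a median of -0.41. Of members with 50% or more shared sequence, 9 of 43 fell (median -0.33), and of those with less, 8 of 45 fell and 1 rose (median -0.36). Among members with a matched start, 11 of the 31 with a long pyrimidine run fell on day 3 (median -0.47), and 5 of the 35 without it fell and 1 rose (median -0.34). With the reduced set these were 21 of 31 (median -0.45) against 13 of 35, with 2 higher (median -0.31). These counts come from the same fit and were not tested against each other. Across the 88 members, the day 3 change and log2 transcript length had a Pearson r of -0.05.

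With no DT, most members were lower in DTRADQ marrow in the fit with all libraries. Of the 88, 63 fell and 1 rose, with 14.4% of all genes called lower and 12.7% higher, and the median change was -0.97, against -0.01 over all genes. In the reduced set 33 fell and none rose, with 7.17% of all genes called lower and 5.29% higher, and a member median of -0.40. Without control libraries 2, 3 and 4, which leaves 1 control mouse with no DT, the member median was -0.06. Fitted on the no-DT libraries alone, edgeR called none of all genes, and the member median was -0.95, against 0.0008 over all genes. In that fit 60 members were lower at an unadjusted p under 0.05, for which no share of all genes is given here. DESeq2 on all libraries called 65 members lower and 1 higher, and called 29.47% of all genes in either direction. Under scaling by library total alone the median of all genes moved to 0.41, and that of the members to -0.46. In 14 members every DTRADQ library lay below every control, as in 5.42% of all genes. Rpl30 had a change of -1.96, Rps15a of -1.73 and Rpl37rt of -1.72. Rpl30, a large-subunit protein, was at 68.5, 43.8, 48.4 and 73.4 CPM in DTRADQ marrow, against 69.9, 125.5, 260.2 and 460.1 CPM in control marrow. Its change was -0.73 (adjusted p = 0.30) and not called in the reduced set. The high control values are those of libraries 2, 3 and 4, in which the erythroid sum was above that of every DTRADQ library with no DT, and in libraries 3 and 4 the share of the highest genes was also high. The part of these in the result was not tested. Short genes moved the same way: among other genes with under 1 kb of exon the median change with no DT was -0.49, and with 2 kb or more 0.08. The members of the same lengths had medians of -1.08 and -0.66. After DT the medians of the other genes of these lengths lay between -0.05 and 0.10. Those of other genes with 1 to 2 kb were -0.01, -0.08 and -0.07 on days 1 to 3.

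Rpl5, partner of Rpl11 in the 5S particle, was the 1 member called higher with no DT, where 3 of the 88 had a change above 0. It was at 24.5, 27.7, 25.4 and 23.9 CPM in DTRADQ marrow, against 24.8, 7.26, 7.40 and 4.35 CPM in control marrow. The log2 change was 1.13 (SE 0.26, adjusted p = 0.0015), and 0.66 (adjusted p = 0.058) without control libraries 3 and 4. Control library 1 lay within the DTRADQ range. Of its 50-base stretches 93.8% are shared, and 3 small RNA genes and Fam69a overlap it, so its level is uncertain. After DT its changes were -0.10, -0.16 and 0.20 and were not called.

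Set against marrow of the same genotype with no DT, ribosomal protein genes were lower after DT in both genotypes. In DTRADQ marrow 6 members fell on day 1, 14 on day 2, and 40 fell and 1 rose on day 3, with 4.22%, 4.85% and 16.8% of all genes called lower and 1.26%, 4.27% and 12.5% higher. The medians were -0.42, -0.54 and -0.57. Leaving out 1 library gave 0 to 6, 1 to 14 and 20 to 42 calls, lowest without DTRADQ day 1 library 3, day 2 library 3 and day 3 library 2, and moved the count by over 1.5 times for 6, 7 and 5 of the 8 libraries. All 4 DTRADQ libraries after DT lay below all 4 with no DT in 45, 57 and 62 of the 88 members, as in 10.4%, 10.8% and 21.7% of all genes. In the reduced set, which keeps all libraries of these contrasts, 37, 54 and 63 fell and 0, 0 and 2 rose, with 8.3%, 10.4% and 20.3% of all genes called lower and 18.7% higher on day 3. On day 3 against no DT, DTRADQ marrow had changes of -0.98 (adjusted p = 0.0067) for Rpl22, -0.98 (adjusted p = 0.0047) for Rpl39, -0.87 (adjusted p = 0.0032) for Rps10 and 2.30 (adjusted p = 6e-06) for Rpl39l. The 3 contrasts share the no-DT libraries. The labels give a lane field of 8 for all day 3 libraries and name all lanes for the other 24, so that lane and day 3 cannot be told apart.

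In control marrow 68, 66 and 69 members fell and 1 rose on days 1, 2 and 3 of DT against no DT, with 17.4%, 14.4% and 15.4% of all genes called lower, 16%, 13.8% and 14.8% higher, and member medians of -1.14, -1.18 and -1.16. In the reduced set 51, 56 and 49 members fell, with 10.5%, 10.4% and 11.2% of all genes called lower and medians of -0.57, -0.62 and -0.55. Without libraries 2, 3 and 4, which leaves 1 no-DT control mouse assumed to vary like the other groups, 1, 2 and 5 fell, with 1.29%, 1.56% and 3.44% of all genes called lower, and the medians were -0.18, -0.25 and -0.22. In 42, 48 and 39 members every control library after DT lay below every one with no DT, as in 8.84%, 7.94% and 8.07% of all genes. On day 3, for example, Rpl32 had a change of -1.88 in control marrow with all libraries and -0.90 in the reduced set.

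The test of whether the DT change differed between genotypes depended on control no-DT libraries 2, 3 and 4. With all libraries 33, 24 and 27 members had a higher change in DTRADQ than in control marrow on days 1, 2 and 3, with 6.51%, 6.22% and 9% of all genes called higher, and 1, 1 and 0 a lower one, with 5.83%, 4.88% and 12% of all genes. In the reduced set these were 4, 2 and 6 higher, with 5.67%, 5.99% and 9.57% of all genes, and 1, 3 and 5 lower, with 6.33%, 6.33% and 14.2%. The medians were 0.15, 0.09 and 0.04 in the reduced set, against 0.76, 0.74 and 0.61 with all libraries. Without libraries 2, 3 and 4 the medians were -0.18, -0.24 and -0.29, the other direction, with -0.06, -0.05 and -0.03 over all genes. Scaling by library total alone moved the median of all genes to -0.69, -0.76 and -0.58 and that of the members to -0.00, -0.11 and -0.08, so that members stayed above all genes there. Leaving out 1 library gave 18 to 53, 10 to 55 and 18 to 53 calls, highest without control no-DT library 1. Rpl39l on day 3 had a difference of 3.00 (SE 0.48, adjusted p = 6.2e-05) with all libraries and 2.68 (SE 0.52, adjusted p = 0.00043) in the reduced set.

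Genes whose products build ribosomes had most of their calls after DT on day 1. These gene lists were set with earlier results of these data known. Of 66 ribosome biogenesis genes, 17 fell in DTRADQ marrow on day 1 and none rose, with a median of -0.41. Of all genes, 3.02% were called lower and 0.888% higher. On day 2 edgeR and DESeq2 called none, and 11 were lower at an unadjusted p under 0.05 (median -0.19), and on day 3, 5 fell and 1 rose (median -0.07). Of all genes, edgeR called 4.12% lower on day 2, and 14.1% lower and 8.8% higher on day 3. With the reduced set 39 fell on day 1, 16 on day 2, and 12 fell and 4 rose on day 3. There 5.86%, 9.35% and 18.1% of all genes were called lower, and 15.2% higher on day 3. Nolc1, a nucleolar phosphoprotein, had a change of -0.60 (adjusted p = 0.00038) on day 1, and Noc4l, which acts in small-subunit maturation, of -0.76 (adjusted p = 0.0005). Npm1, the abundant nucleolar chaperone, had -0.55 (adjusted p = 0.032, and 0.065 to 0.13 without any 1 library other than library 1 of either genotype), and Ncl, or nucleolin, had -0.41 (adjusted p = 0.11). Myc, the transcription factor that drives ribosome synthesis, had -0.58 (SE 0.15, adjusted p = 0.017) on day 1, with an adjusted p of 0.051 to 0.089 without DTRADQ library 2 or 3 or control library 2, and was not called on day 2 (-0.14, adjusted p = 0.58) or day 3 (-0.15, adjusted p = 0.49). On day 3 Rrs1, a large-subunit assembly factor, had a change of -1.15 (adjusted p = 0.0051), and Ubtf, a factor of ribosomal RNA transcription, of -0.68 (adjusted p = 0.0054).

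Mitochondrial ribosomal proteins, which form a separate ribosome, had medians of -0.20, -0.20 and -0.26 on days 1, 2 and 3. Of the 75 tested, 3, 4 and 8 fell and none rose, with 3.02%, 4.12% and 14.1% of all genes called lower. The counts were 12, 16 and 24 of 76 lower and 0, 0 and 1 higher in the reduced set. There 5.86%, 9.35% and 18.1% of all genes were called lower. Mrpl12 had a change of -0.84 (adjusted p = 0.0067) on day 1 and -0.61 (adjusted p = 0.042) on day 2. Of 44 translation factors, 2, 1 and 10 fell and none rose, with medians of -0.13, -0.18 and -0.25. Pabpc4, a poly(A)-binding protein, had a change of -1.68 (SE 0.27, adjusted p = 2.2e-05) on day 3, and Eif3j1 of -0.87 (adjusted p = 0.0082). Eef2, which encodes the protein DT inactivates, had changes of -0.22, -0.18 and -0.13 on days 1 to 3 that were not called (adjusted p = 0.50, 0.50 and 0.57).

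Ribosome components outside the symbol rule were also followed. Rack1, on the small subunit, had changes of -0.39, -0.43 and -0.39 on days 1 to 3 (adjusted p = 0.23, 0.11 and 0.097). Fau, the source of eS30, had -0.03, -0.05 and 0.05, with no call after DT. Of the 10 genes of this list, edgeR and DESeq2 called none on days 1 and 2, with 2 lower at an unadjusted p under 0.05 on each day, and Serbp1, which binds ribosomes at rest, fell by 0.67 on the log2 scale on day 3. Of 7 genes of diphthamide synthesis, edgeR called none on day 1 (2 lower at an unadjusted p under 0.05, 1 by DESeq2) or day 2 (0 and 0), and Dph2 rose by 0.50 on the log2 scale on day 3. Of 23 growth regulators tested, 1, 2 and 3 rose and 1 fell on each of days 1 to 3. On these days 0.888%, 4.4% and 8.8% of all genes were called higher and 3.02%, 4.12% and 14.1% lower.

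**Figure D5:**
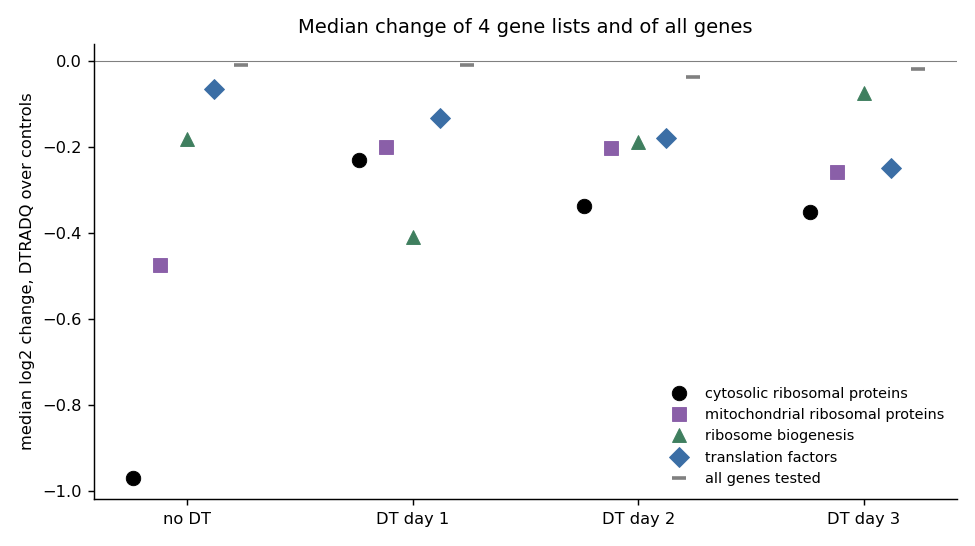
Median log2 change, DTRADQ over controls (y axis), of 4 gene lists and of all genes tested, by DT day (x axis); each symbol is 1 median over the tested genes of its list. On day 1 ribosome biogenesis genes are lowest at -0.41, and on days 2 and 3 cytosolic ribosomal proteins are lowest at -0.34 and -0.35; the no-DT median of -0.97 becomes -0.40 without control libraries 3 and 4.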

How the data were processed

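Whole-marrow RNA was sequenced in 32 libraries made with the Clontech SMARTer kit, per the labels' protocols. Tools listed in the submitters' processing notes are featureCounts 1.45 of Subread, STAR 2.0.4b and bcl2fastq, and the build is GRCm38. The authors deposited a raw read count, a CPM and an RPKM per feature, per the file headers. The deposited CPM and RPKM followed from the count, library total and feature length to within 4.4e-10 and a relative 3.9e-14. Whether strand was used, and what was done with reads of multiple matches, is not given in the sources used here. Symbols came from GENCODE vM21 and were found for 97.26% of features; shared 50-base stretches came from its transcripts.

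Counts were fitted with edgeR 4.0.16 in R 4.3.3 (TMM, filterByExpr with a minimum count of 10, 8 group means, glmQLFTest, two-sided, 13 contrasts, Benjamini-Hochberg over 14527 genes, threshold 0.05). The fit was tested on simulated data in which each gene had the same spread in every group. The wider spread of the control no-DT group was not part of that simulation. CPM in the text are TMM-scaled and computed here, and each SE was derived from the F statistic and the log2 change. The replicate is the mouse, per the series' design text. No 2 libraries of a group were copies.

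Replicate numbers are shared between groups, and the labels do not say what they mark. Same-numbered libraries deviated together in all 4 pairs (r over 0.1, on log2 CPM with 0.5 added) in some comparisons. These were DTRADQ against controls with no DT (0.17 to 0.21) and on day 3 (0.10 to 0.15), and control day 1 against no DT (0.15 to 0.39). Differently numbered libraries reached up to 0.29, 0.16 and 0.29 there, so pairing was not settled. The main fit was unpaired, and the replicate number entered only the blocked fit. The blocked fit changed none of the calls for members named by rule.

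Named members were, per genotype comparison, the 4 largest rises and falls among members called whose mean log2 CPM reached 1 (2 and 2 in the other contrasts), the 5 highest in median RPKM, the 5 least correlated with the summed level, and a fixed list of names, with up to 3 genes of smallest p per gene list; some of these are not reported here. The members, the lists and these rules were chosen with earlier results of these data known. Alternatives were DESeq2 1.42.0, other scalings, no filter on low counts, only the groups compared, the replicate block, only members of at least 10 RPKM, and leaving out each library. Leaving out control no-DT libraries 2, 3 and 4, and adding named pseudogenes to the share, were added after seeing the data.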

Additional observations from a re-analysis of the deposited data

Results flagged for a closer look

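A library far from the other 3 of its group was found in 8 of 96 groups of 4 looked at, over the share and 11 members; chance gives about 1 in 20. DTRADQ library 1 on day 1 had the highest share of counts on the 92 features, 1.37%, against 1.24 to 1.25% in the other 3. Rps10 was lowest at 22.2 CPM in DTRADQ library 2 on day 2, and at 29.1 CPM in control library 1 on day 1. Rpl35 was highest in DTRADQ library 1, at 118.8 CPM on day 1 and 88.3 CPM on day 3. Rpl11 was highest at 4.59 CPM in control library 4 on day 1, and Rpl30 lowest at 28.4 CPM in control library 1 on day 1. Rpl5 was highest at 24.8 CPM in control library 1 with no DT, and at 4.35 to 7.40 CPM in the other 3.

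The change with DT differed between genotypes, by the interaction test, in 34, 25 and 27 members on days 1, 2 and 3 (38.6%, 28.4% and 30.7%, against 12.3%, 11.1% and 21.0% of all genes). Without control no-DT libraries 3 and 4 it did in 5, 5 and 11 members (5.68%, 5.68% and 12.5%), below the 12%, 12.3% and 23.8% of all genes. On day 1 the difference was 1.14 for Rps14, 0.90 for Rps27rt, 1.53 for Rpl35 and -1.23 for Rpl5, and none of these was called without libraries 3 and 4 (0.12, 0.46, 0.43 and -0.76). On day 2 it was 1.30 for Rpl35 and -1.30 for Rpl5, not called without them (0.21 and -0.81). On day 3 it was 1.11 for Rpl35, not called without them (0.03), and 3.00 for Rpl39l, called with and without them. The part of the erythroid sum and top-gene share of libraries 3 and 4 in these differences was not tested.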

How the results depend on the processing

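With all libraries, members called in either direction numbered 64, 1, 2 and 18 for DTRADQ against controls with no DT and on days 1, 2 and 3, 34, 25 and 27 for the interactions, 69, 67 and 70 for DT against no DT in controls, and 6, 14 and 41 in DTRADQ marrow. Of all genes, 27.15%, 3.903%, 8.522% and 22.92% were called in the genotype comparisons and 12.34%, 11.1% and 21.04% in the interactions. In controls the share was 33.45%, 28.29% and 30.23%, and in DTRADQ marrow 5.479%, 9.114% and 29.35%. Fitted on only the groups compared, members called numbered 0, 7, 35 and 52, then 0, 0 and 6, then 36, 36 and 36, then 36, 51 and 66. Of all genes these fits called 0%, 7.088%, 19.73% and 36.14%, then 3.252%, 2.575% and 11.37%. In controls they called 7.428%, 5.076% and 6.681%, and in DTRADQ marrow 12.75%, 16.57% and 42.77%. Without control no-DT libraries 3 and 4, members called numbered 33, 10, 31 and 45, then 5, 5 and 11, then 52, 57 and 49, then 37, 54 and 65. Of all genes, 12.46%, 8.887%, 19.25% and 33.39%, then 12%, 12.32% and 23.78% were called there. In controls the share was 20.77%, 19.32% and 22.29%. In DTRADQ marrow it was 12.54% and 19.56% on days 1 and 2, and 20.3% lower and 18.7% higher on day 3. Without libraries 2, 3 and 4 they were 0, 15, 36 and 51, then 2, 4 and 15, then 2, 3 and 6, then 44, 56 and 65. Scaled by library total, members called numbered 47, 31, 65 and 46, then 17, 13 and 16, then 51, 56 and 54, then 40, 63 and 63. Of all genes, 40.15%, 13.95%, 29.07% and 25.75% were called there in the genotype comparisons. In the interactions the share was 42.9%, 48.22% and 38.03% of all genes, above the 19.32%, 14.77% and 18.18% of members. In controls 47.48%, 53.04% and 46.36% of all genes were called, and in DTRADQ marrow 12.76%, 17.29% and 28.79%. Of the 56 members with a median of at least 10 RPKM, 0 and 0 were called on days 1 and 2 and 11 on day 3. In DTRADQ marrow against no DT 0, 8 and 27 of them were called. These counts come from the fit with all libraries and only leave members out, so they are taken from fewer members. DESeq2 called 22 members for DTRADQ day 2 against no DT, and 11.87% of all genes. The causes of the shifts between fits were not tested.

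Leaving out 1 library gave 55 to 71, 0 to 1, 0 to 3 and 6 to 17 for the genotype comparisons (6 without DTRADQ day 3 library 2), 18 to 53, 10 to 55 and 18 to 53 for the interactions (lowest without control no-DT library 3 on days 1 and 2 and library 4 on day 3, highest without library 1), 60 to 76, 58 to 73 and 59 to 73 in controls, and 0 to 6, 1 to 14 and 20 to 42 in DTRADQ marrow. The share differed by -1.31 to -0.784 points with no DT, -0.573 to -0.435 on day 1, -0.719 to -0.599 on day 2 and -0.641 to -0.518 on day 3. Its no-DT difference was -2.40 with the 20 highest other genes left out of the total, -0.388 without control libraries 3 and 4 and -0.0795 without 2, 3 and 4. Rpl5 reversed for control day 3 against no DT, to -0.094 without libraries 2, 3 and 4.

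With the replicate block the genotype comparisons called 65, 1, 3 and 19 members. On days 1 and 2 same-numbered libraries did not deviate together, and what the numbers mark is not known. The 39 changes followed were those of members named by rule, with Rpl39l on day 3 and Myc, Npm1 and Nolc1 on day 1 added. The block and DESeq2 kept all 39, library totals 36, only the groups compared 24, and leaving out libraries 3 and 4 kept 27. Low counts limit Rpl39l, Rps27 and Rps27rt.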
